A study of Mus musculus with 10 samples.

Results

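The dual-specificity MAPK phosphatases are enzymes that remove phosphate from both the threonine and the tyrosine of the activation loop of ERK, JNK and p38 kinases, and so switch these kinases off. Many of their genes are themselves induced by the pathways they inhibit, so their transcripts are part of a negative feedback. In muscle stem cells (MuSCs), ERK and p38 signalling accompanies the exit from quiescence and the choice between proliferation and differentiation. The 10 genes described here were chosen by name from the 24608 gene symbols of the count table: Dusp1, Dusp2, Dusp4 and Dusp5, which encode inducible enzymes of the nucleus; Dusp6 and Dusp7, which encode cytoplasmic enzymes that act mainly on ERK; Dusp8, Dusp10 and Dusp16, whose products prefer JNK and p38; and Dusp14, a small atypical member. All 10 had counts, 9 of them in every library.

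The study asked what changes in activated MuSCs that lack TRPM7, an ion channel that carries magnesium. The 5 control libraries came from mice of the genotype Trpm7+/+; Pax7CreERT2/+; Rosa26YFP and the other 5 from Trpm7 cKO mice (Trpm7 flox/flox with the same Cre and reporter alleles), all adult and all given tamoxifen. Cells were sorted 3 days after cardiotoxin (CTX) injury by the YFP reporter, which is switched on by a tamoxifen-dependent Cre under Pax7 and therefore marks cells that expressed Pax7 at the time of treatment and their progeny. Each library was made from 3000 sorted cells by CEL-Seq2, a method that counts molecules at the 3′ end of transcripts with unique molecular identifiers (UMIs). The labels do not say whether each library is a separate animal, and the library names of Trpm7 cKO replicates 4 and 5 share a number, so p-values measure the spread between libraries.

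Totals were 914361 to 1097709 counts in control and 205986 to 581121 in Trpm7 cKO libraries, and 3 counts, taken as the detection floor, corresponded to 2.98 to 3.47 and 4.97 to 16.6 CPM (counts scaled to a common library size, here with TMM factors). Trpm7 itself was at 76.9 ± 9.97 CPM in control and 71.4 ± 22.01 CPM in Trpm7 cKO (SD, n = 5), with edgeR adjusted p = 0.723. A 3′ tag does not show whether a floxed exon was removed, so this value checks nothing about the deletion. Of the 18 tested genes of a 20-gene MuSC identity list, 11 were higher and 3 lower in Trpm7 cKO by the edgeR test. Over all tested genes the shares were 24.6% higher and 24.1% lower, beside which the counts of each marker list are to be read. The summed level of the MuSC identity list overlapped between genotypes (4368 to 5119 CPM in control and 3557 to 5641 CPM in Trpm7 cKO). Pax7 was higher (166 to 259 against 265 to 557 CPM), whereas Myod1 (551 to 827 against 132 to 235 CPM), Chrna1 (823 to 1033 against 116 to 192 CPM) and Itga7 (353 to 425 against 215 to 292 CPM) were lower. Markers of other cells moved with genotype: all 20 tested genes of a leukocyte list were higher in Trpm7 cKO, and the summed level of its 29 measured genes was 415 to 706 CPM in control and 1579 to 7039 CPM in Trpm7 cKO, with none at 0 in all libraries. Among them were Ptprc (8.003 ± 4.70 against 56.7 ± 26.1 CPM), Adgre1 (4.85 ± 0.770 against 52.8 ± 27.6 CPM) and Csf1r (9.78 ± 2.47 against 75.0 ± 38.2 CPM). These genes were low in control and passed the filter on low counts only through the Trpm7 cKO libraries. The count of 20 was therefore partly fixed beforehand, whereas the sum took in all 29 genes without that filter. The summed level was also higher for 8 endothelial genes (5.36 to 55.6 against 105 to 563 CPM), with Pecam1 at 5.29 ± 7.13 and 64.0 ± 50.2 CPM, and for 7 pericyte and smooth muscle genes (601 to 949 against 1195 to 1754 CPM). The sums of 8 fibroadipogenic progenitor genes overlapped between genotypes (986 to 2046 against 1571 to 3858 CPM, with Pdgfra at 1.099 ± 1.12 and 9.68 ± 10.4 CPM). Of the 5 tested genes of that list, 4 were higher in Trpm7 cKO, with a median log2 fold change of 2.21 over the 5. The other, Col3a1, was the largest part of the sum (1179 ± 433 and 1441 ± 603 CPM). The sums of 5 Schwann cell genes did not overlap (2.14 to 7.03 against 14.7 to 143 CPM). The share of counts from mitochondrial transcripts was 15.3% ± 1.85 in control and 9.35% ± 0.711 in Trpm7 cKO. In these bulk samples, fewer cells of a type and less RNA per cell cannot be told apart.

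The 10 genes did not move as one group. Of the 8 that passed the filter on low counts, Dusp1 rose, Dusp5, Dusp10 and Dusp14 fell, and Dusp2, Dusp6, Dusp7 and Dusp16 did not pass the test (edgeR quasi-likelihood test, Benjamini-Hochberg adjusted p below 0.05 over 7753 genes). In the background of all tested genes, 24.1% were called lower and 24.6% higher, against which the 3 and 1 of the 8 tested genes are to be read. With an absolute log2 fold change above 1.5 required as well, Dusp10 and Dusp14 remained lower and Dusp1 remained higher, where 3.53% of all genes were past both thresholds downward and 8.49% upward. Among the 8 tested genes, the same 3 falling genes and 1 rising gene had normalized CPM that did not overlap between genotypes, as did 17.9% of all tested genes downward and 16.6% upward. The median log2 fold change was 0.18 over the 8 tested genes and -0.0060 over all tested genes. Dusp4 and Dusp8 were too low for the filter.

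**Figure D1:**
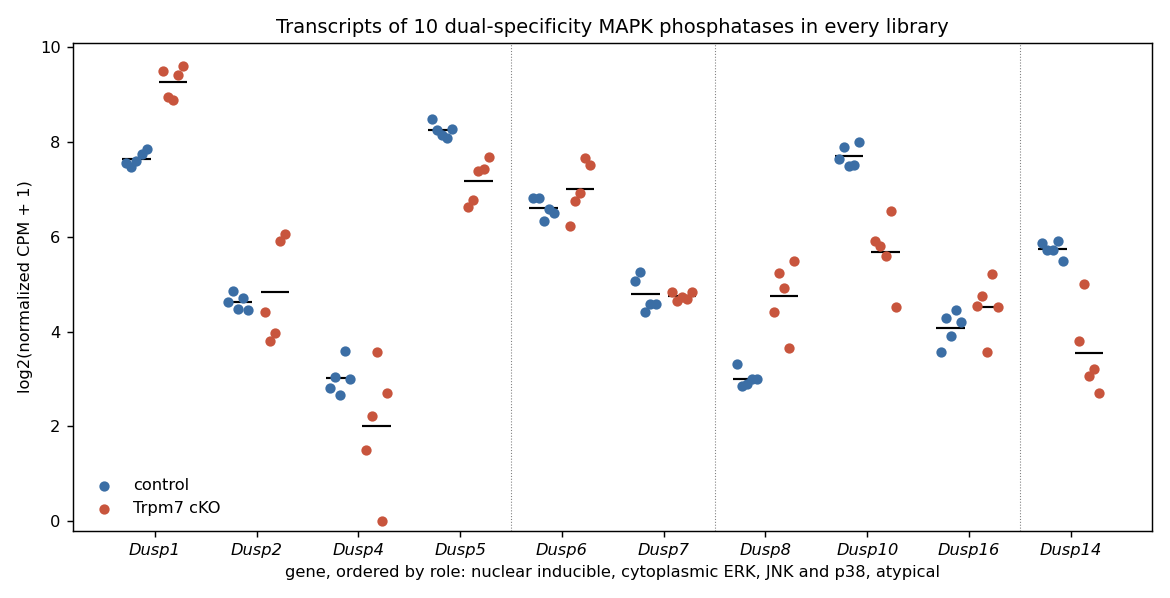
Normalized level of each phosphatase gene, as log2(CPM + 1), in 5 control (blue) and 5 Trpm7 cKO libraries (red), with black bars at group means on that scale. The groups are apart for Dusp1, Dusp5, Dusp8, Dusp10 and Dusp14 and overlap for the other 5 genes.

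Among the inducible nuclear enzymes, Dusp1, which acts on p38, JNK and ERK and is an immediate early gene, rose 3.13-fold. This gene (chr17:26505590-26562128, minus strand, GRCm38 with GENCODE M21, as for the positions of the genes that follow) has 4 exons in its main transcript. Its level was 188, 177, 194, 216 and 229 CPM in control replicates 1 to 5 and 721, 491, 471, 688 and 778 CPM in Trpm7 cKO replicates 1 to 5. The lowest Trpm7 cKO library was above the highest control library. The shallowest libraries, Trpm7 cKO replicates 3 and 5, still held 129 and 141 counts of it. The log2 fold change was 1.65 ± 0.16 (SE, n = 5 per genotype, 95% interval 1.31 to 1.98, adjusted p = 1.20e-07). Leaving out any 1 library gave 1.57 to 1.72. The call was lost with the mean leukocyte level as a covariate, where the log2 fold change was 1.02 and the adjusted p was 0.131. That covariate did not overlap between genotypes, and the fit called 1.79% of all tested genes lower and 5.03% higher. The Dusp1 call was also lost when counts were compared per 3000 sorted cells without library scaling (0.49, adjusted p = 0.225). On that scale the median of all genes fell by 1.15.

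Genes that respond to enzymatic dissociation of tissue, many of them immediate early genes like Dusp1, moved with it. Of 12 such genes, 10 rose and 0 fell by edgeR, with a median log2 fold change of 1.76, and the 2 that did not pass were the heat shock genes Hspa1a and Hspa1b. Over all tested genes, 24.6% rose and 24.1% fell, with a median of -0.0060. The summed level of the 12 genes was 4655 to 6503 CPM in control and 10243 to 19718 CPM in Trpm7 cKO. Its part in the result for Dusp1 was not tested.

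The promoters of Dusp1 and Dusp8 hold the letters of the cAMP response element (CRE), the palindrome known to bind CREB and ATF factors. The promoter of Dusp5 holds the letters of the CArG box, known to bind serum response factor. RefSeq promoters (GRCm38.p6, 250 bases before to 50 after the start site) were at hand for 9 of the 10 genes and for 32851 start sites in all. They were searched on both strands for 7 motifs. The CRE letters TGACGTCA were found in 1.79% of all promoters and the CArG box in 1.63%. The shorter CRE-like letters TGACGT, which every CRE also holds, were in 7.51% of all promoters and in those of Dusp1, Dusp8 and Dusp5. Thus both the genes that were high in Trpm7 cKO libraries (Dusp1 and Dusp8) and one that was low (Dusp5) hold them. The windows of these 3 genes are shown for that comparison. They run 5′ to 3′ on the strand of the gene, with the matched letters in capitals.
Dusp1 CRE, chr17:26508599-26508624, minus strand: tagggcgggTGACGTCAccgcccggt
Dusp8 CRE, upstream copy, chr7:142095375-142095400, minus strand: ccgctccgcTGACGTCAcctgccccc
Dusp8 CRE, downstream copy, chr7:142095331-142095356, minus strand: ggctgcaggTGACGTCAggggctttt
Dusp5 CArG, upstream copy, chr19:53529055-53529080, plus strand: ggaaatacCCATATTTGGccttatat
Dusp5 CArG, downstream copy, chr19:53529065-53529090, plus strand: atatttggCCTTATATGGgcactcac
Dusp5 CRE-like letters, on the opposite strand of the gene, chr19:53529079-53529104, plus strand shown: atgggcactcACGTCAcaggacgcgc
The CRE of Dusp1 begins 143 bases before the start site, and those of Dusp8 begin 107 and 63 bases before it. The CArG boxes of Dusp5 begin 82 and 72 bases before the start site, next to each other. None of the 9 promoters held the AP-1 letters TGANTCA, which were in 7.81% of all promoters, or the TATA box letters TATAAA, in 13.6%. The E-box letters CACGTG were in the promoters of Dusp1 and Dusp2 and in 7.15% of all, and the GC box letters GGGCGG were in 8 of the 9 and in 35.7% of all. The 9 promoters were 57.3% to 78.7% G and C, against a median of 52.7% for all promoters. The motif shares were not adjusted for that difference. Such a match describes letters in a window and is not a measured binding site.

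Dusp5 (chr19:53529109-53542431, plus strand), which encodes a nuclear enzyme specific for ERK, fell 2.11-fold in the fit, from 306 ± 33.7 CPM in control to 150 ± 45.0 CPM in Trpm7 cKO (SD, n = 5). Control replicates 1 to 5 were at 359, 305, 285, 270 and 309 CPM and Trpm7 cKO replicates 1 to 5 at 97.9, 109, 168, 171 and 204 CPM. The highest Trpm7 cKO library stayed below the lowest control library. The log2 fold change was -1.08 ± 0.18 (SE, 95% interval -1.45 to -0.70, adjusted p = 5.86e-05), and leaving out any 1 library gave -1.19 to -0.97. With the leukocyte covariate it was -2.19 (adjusted p = 0.00430). Dusp1 and Dusp5 were thus on opposite sides of 0 within 1 functional class.

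Dusp2, a nuclear phosphatase known best from lymphoid and myeloid cells, was at 23.9, 27.9, 21.4, 25.1 and 20.8 CPM in control replicates 1 to 5. In Trpm7 cKO it was at 20.3, 12.9 and 14.6 CPM in replicates 1 to 3 and at 59.6 and 66.2 CPM in replicates 4 and 5. The first 3 were below the range of the control libraries and the other two above it. The log2 fold change of 0.45 ± 0.36 (SE, 95% interval -0.30 to 1.21, adjusted p = 0.315) lay between these values and turned to -0.07 (adjusted p = 0.884) without Trpm7 cKO replicate 4. Replicates 4 and 5 also had the highest leukocyte sums, 7039 and 6793 CPM, against 4026, 1579 and 4191 CPM in replicates 1 to 3. With the leukocyte covariate the log2 fold change was -2.64 (adjusted p = 0.0698).

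Dusp4, the close relative of Dusp1 and Dusp2 and a nuclear target of ERK signalling, was barely detected. Its raw counts were 6, 7, 5, 11 and 6 over control replicates 1 to 5. Over the Trpm7 cKO replicates, in the same order, they were 1, 2, 3, 0 and 1. All Trpm7 cKO values were at or under the floor of 3 counts, so no fold is given. On the CPM scale the genotypes overlapped, 7.31 ± 2.22 and 4.402 ± 4.20 CPM, with exact permutation p = 0.214 (two-sided; 0.00794 is the smallest p that 5 against 5 libraries allow).

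Neither cytoplasmic ERK phosphatase among the 10 genes changed past the threshold. Dusp6, a target of FGF and ERK signalling that holds inactive ERK in the cytoplasm, was at 112, 112, 79.4, 95.4 and 90.3 CPM in control replicates 1 to 5. Trpm7 cKO replicates 1 to 5 were at 73.9, 107, 121, 202 and 182 CPM. Replicates 3, 4 and 5 were above all control libraries and replicate 1 below them. The log2 fold change was 0.46 ± 0.22 (SE, 95% interval 0.00 to 0.92, adjusted p = 0.0906). Scaling by total counts (0.55, adjusted p = 0.0426) or leaving out Trpm7 cKO replicate 1 (0.62, adjusted p = 0.0128) brought it under the threshold, and without replicate 4 it was 0.18 (adjusted p = 0.480). Dusp7, which encodes the related enzyme, was at 20.4 to 37.2 CPM in control and 23.9 to 27.7 CPM in Trpm7 cKO libraries. Its log2 fold change was -0.09 ± 0.25 (SE, 95% interval -0.61 to 0.42, adjusted p = 0.784).

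The JNK and p38 phosphatases went in different directions. Dusp10 (chr1:184013302-184075636, plus strand), which encodes an enzyme that inactivates p38 and JNK, fell 3.49-fold in the fit. Control replicates 1 to 5 were at 200, 236, 180, 182 and 257 CPM and Trpm7 cKO replicates 1 to 5 at 59.1, 55.2, 47.5, 92.8 and 22.1 CPM. The lowest value rests on 4 counts in the shallowest library, and the groups did not overlap. This is a log2 fold change of -1.80 ± 0.21 (SE, 95% interval -2.25 to -1.36, adjusted p = 1.29e-06). It was -1.69 to -2.09 when any 1 library was left out and -2.54 with the leukocyte covariate (adjusted p = 0.0106). Of the last 500 bases of its transcript, where reads fall in this assay, 6.6% were shared as runs of 31 bases with other genes; in the other 9 genes it was 0.0%.

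Dusp8 (chr7:142079490-142095843, minus strand), which encodes a JNK and p38 phosphatase best known from brain and heart, was low in control libraries and higher in every Trpm7 cKO library. It had 8.95, 6.20, 6.43, 7.03 and 6.95 CPM in control replicates 1 to 5 and 20.3, 36.8, 29.2, 11.6 and 44.1 CPM in Trpm7 cKO replicates 1 to 5. The groups did not overlap after scaling, although the raw counts did, with 6 to 9 in control and 7 to 20 in Trpm7 cKO libraries. The means, 7.11 ± 1.09 and 28.4 ± 12.9 CPM (SD, n = 5), were 3.997-fold apart, with exact permutation p = 0.00794, the smallest possible here. The filter had kept the gene out of the test across all genes. Without a filter its log2 fold change was 1.65 (edgeR adjusted p = 0.000105), and by DESeq2, run on all genes with a count, 1.82 (adjusted p = 0.000282). The other fits that held it let it in through its level in the Trpm7 cKO libraries, so passing there is not separate support. Over all fits that held it, the log2 fold change was 1.61 to 2.08. With the leukocyte covariate and per 3000 sorted cells the filter also kept it out, so it has no value there.

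Dusp16, whose product holds JNK in check, was at 10.9, 18.6, 13.9, 21.1 and 17.4 CPM in control replicates 1 to 5 and 22.2, 25.8, 10.96, 36.5 and 22.1 CPM in Trpm7 cKO replicates 1 to 5. Trpm7 cKO replicates 1, 2, 4 and 5 were above the control range and replicate 3, from 3 counts, was near its bottom. The log2 fold change was 0.61 ± 0.29 (SE, 95% interval 0.01 to 1.22, adjusted p = 0.0886). Without Trpm7 cKO replicate 3, which carries that low count, it was 0.74 and passed at adjusted p = 0.0426. Without replicate 4 it was 0.36 (adjusted p = 0.381).

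Dusp14 (chr11:84048041-84069261, minus strand), which encodes an atypical enzyme without the kinase-binding domain of the other family members, fell from 52.8 ± 6.04 CPM to 13.1 ± 10.5 CPM (SD, n = 5). The control libraries, replicates 1 to 5, were at 57.7, 51.6, 51.5, 59.2 and 44.0 CPM. Trpm7 cKO replicates 1 to 5 were at 12.9, 31.3, 7.31, 8.28 and 5.52 CPM, from 7, 17, 2, 5 and 1 counts, so replicates 3 and 5 were under the floor of 3 counts. The genotypes did not overlap. The log2 fold change was -1.83 ± 0.31 (SE, 95% interval -2.47 to -1.20, adjusted p = 5.63e-05), and it moved to -2.49 without Trpm7 cKO replicate 2, the highest of its group. With the leukocyte covariate, which did not overlap between genotypes, it was 0.39 (adjusted p = 0.903), where Dusp5 and Dusp10 stayed lower.

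**Figure D2:**
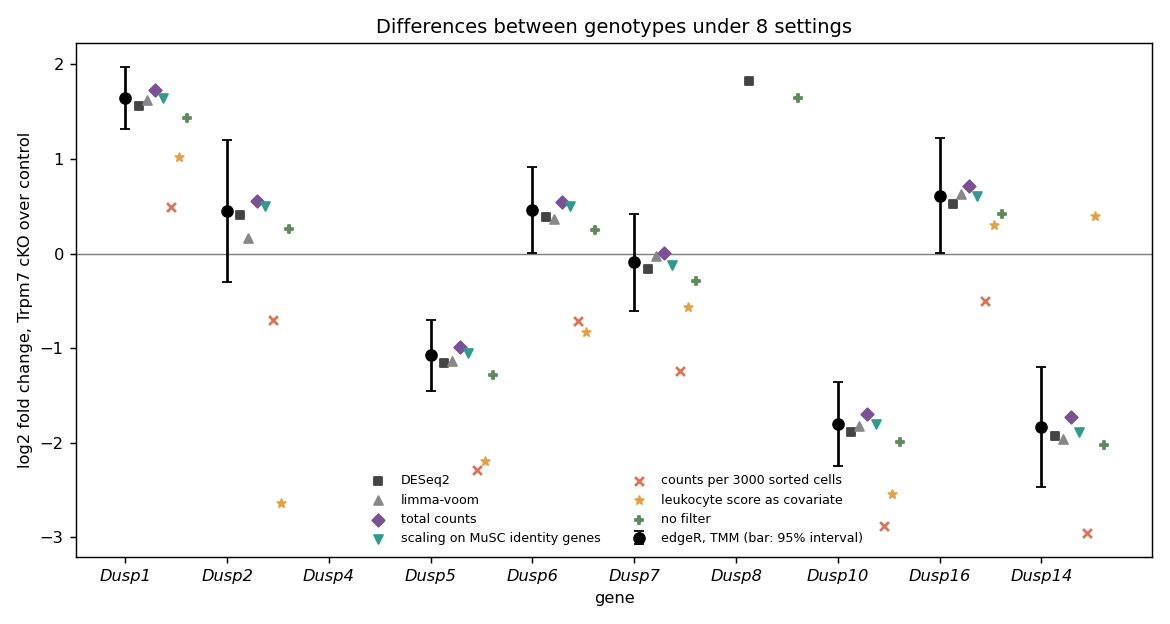
Log2 fold change, Trpm7 cKO over control, of 9 of the genes under the edgeR fit (black, with 95% interval) and 7 other settings (symbols). Dusp4 is left out because no Trpm7 cKO library had more than 3 counts, and Dusp8 has no black point because the filter excluded it. Dusp5 and Dusp10 are below 0 under every setting drawn, while the leukocyte covariate and the comparison per 3000 cells move most other points.

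Counts of different genes within 1 library share its depth, so their ratios need no scaling. In this assay 1 transcript molecule gives at most 1 counted tag, so counts do not grow with transcript length. They are not numbers of molecules in the cells. Of the counts of the 10 genes, Dusp1 made up 21.2% ± 2.58 in control and 57.1% ± 6.51 in Trpm7 cKO libraries (SD, n = 5). Dusp5 went from 32.2% ± 2.47 to 13.6% ± 3.45, Dusp10 from 22.1% ± 2.58 to 5.16% ± 2.11, and Dusp14 from 5.59% ± 0.809 to 1.31% ± 1.25. In each case the ranges of the libraries did not overlap. Thus Dusp5 held the largest share of the counts of these genes in each control library and Dusp1 in each Trpm7 cKO library. By role, the nuclear inducible genes held 56.6% ± 2.35 in control and 74.1% ± 4.50 in Trpm7 cKO, the JNK and p38 phosphatases 24.6% ± 2.58 and 9.96% ± 2.40, and the cytoplasmic ERK phosphatases 13.1% ± 1.73 and 14.7% ± 3.02. These totals hide opposite moves within a role. Dusp5 fell where Dusp1 rose, and mean shares of Dusp8 (0.749% and 2.68%) and Dusp16 (1.73% and 2.13%) did not fall with Dusp10. Shares within a library are also tied, since a larger share of 1 gene lowers those of the others.

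**Figure D3:**
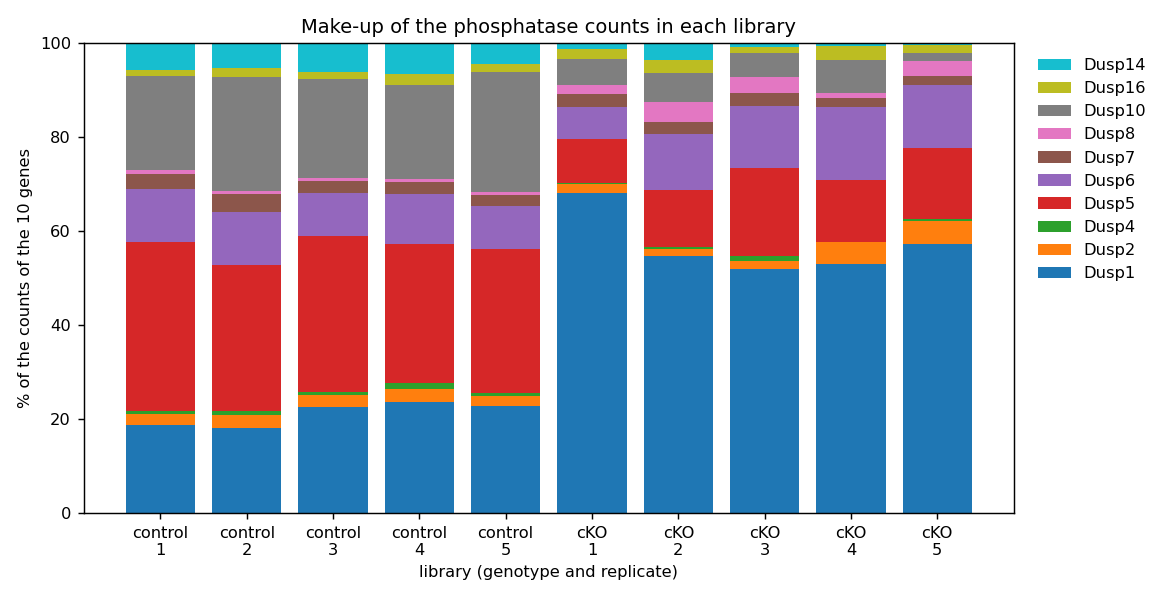
Share of each gene in the summed counts of the 10 phosphatase genes, in percent, for the 5 control and 5 Trpm7 cKO libraries. Dusp1 (dark blue, lowest segment) takes 18.1% to 23.7% in control libraries and 52.0% to 68.2% in Trpm7 cKO libraries.

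The log2 ratios of 3 pairs of genes, each pair of 1 role, were tested with two-sided exact permutation tests and adjusted over the 3, on log2((a + 0.5)/(b + 0.5)) of the counts. The log2 ratio of Dusp10 to Dusp16 was 3.67 ± 0.39 in control and 1.15 ± 0.72 in Trpm7 cKO, a difference of -2.52 (adjusted p = 0.0119, exact p = 0.00794). That of Dusp1 to Dusp4 was 4.72 ± 0.34 and 7.25 ± 1.70, a difference of 2.53 (adjusted p = 0.0119), although its size depends on the added constant because Dusp4 had at most 3 counts in each Trpm7 cKO library, with 3.17 for 0.1 and 2.17 for 1. The lowest Trpm7 cKO library was at 5.21 and the highest control library at 5.04. With Dusp4 at or under the floor there, this ratio is not separate support beyond the result for Dusp1. The ratio of Dusp6 to Dusp7 differed by 0.40 (adjusted p = 0.198). Without Trpm7 cKO replicate 1 that difference was 0.62 and passed at adjusted p = 0.00794.

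With the genotype difference removed, some pairs of the genes varied together or in opposite directions. After centring on the genotype means, log2 CPM over the 10 libraries had Pearson r = 0.84 for Dusp5 and Dusp6, 0.78 for Dusp2 and Dusp6, 0.68 for Dusp1 and Dusp2 and -0.75 for Dusp5 and Dusp14. These were picked as the largest in size over all pairs of the 8 tested genes. Other pairs were near 0, such as Dusp7 and Dusp10 (-0.01). Relative to its mean, each gene of the picked pairs spread more in Trpm7 cKO than in control, so r leans on those libraries. Over the uncentred libraries Dusp5 and Dusp6 had r = -0.03. These values describe 10 libraries that share depth and cell make-up and are given without a test. Dusp6 was highest in replicates 4 and 5 of Trpm7 cKO, the pair with the highest leukocyte sums, and within Trpm7 cKO Dusp5 was highest in replicate 5.

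**Figure D4:**
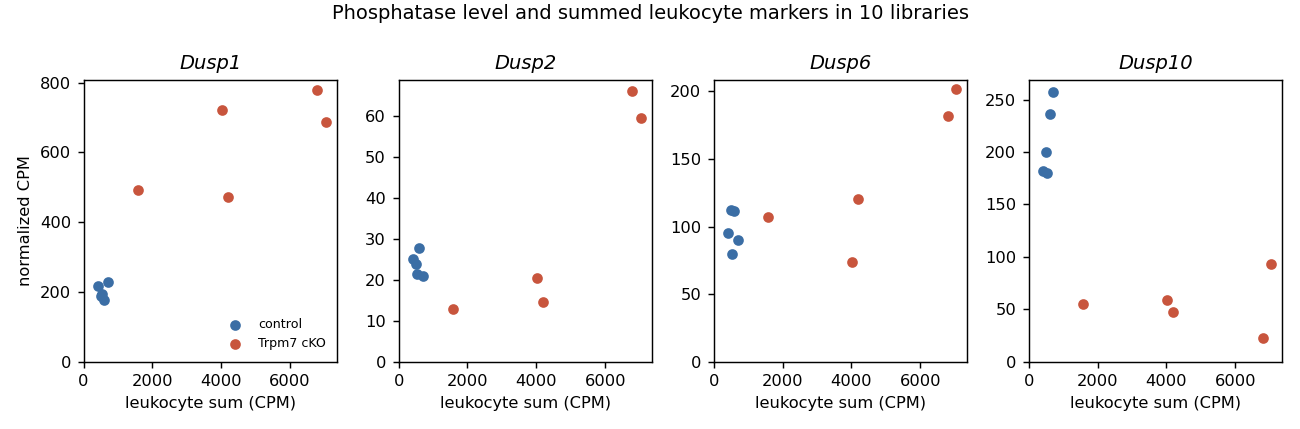
Normalized CPM of Dusp1, Dusp2, Dusp6 and Dusp10 against the summed CPM of 29 leukocyte genes in the same library, for 5 control (blue) and 5 Trpm7 cKO (red) libraries. The Trpm7 cKO libraries with sums of 6793 and 7039 CPM are the highest for Dusp2 and Dusp6, whereas Dusp10 is low in all Trpm7 cKO libraries.

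The genes whose level over the 10 libraries was most like that of a phosphatase were named for each tested member with a mean of at least 20 CPM. The uncentred Pearson r of log2 CPM is used over the 10 libraries, which fall into 2 clusters by genotype, and it is given as a description with no test. Nearest to Dusp1 were Srgn (r = 0.99), a proteoglycan gene of blood cell granules, and Pias3 (0.99). Klhl40 (0.97), a gene of the skeletal muscle sarcomere, and Cdk2 (0.97) were nearest to Dusp5, Dbf4 (0.99), an activator of replication origins, and Ubac1 (0.98) to Dusp10, and Ncbp1 (0.99) and Nup62 (0.98), genes of RNA and nuclear transport, to Dusp14. For the genes without a called difference the values were lower, with Cmpk2 (0.92) and Ogfrl1 (0.92) for Dusp2, Ywhah (0.94) and Dnajc9 (0.92) for Dusp6, and Ncoa5 (0.82) and Cyb5r3 (0.81) for Dusp7.

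The kinases that these enzymes act on, and the genes beyond them, were examined from lists. Of 12 tested genes of the ERK cascade, 4 were higher and 5 lower in Trpm7 cKO. Hras and Nras, the small GTPases at its head, fell by 1.14 and 0.96 on the log2 scale (adjusted p = 4.71e-06 and 0.000125), from 184 ± 19.4 to 81.3 ± 12.2 CPM and from 407 ± 55.3 to 208 ± 58.6 CPM. Ksr1, a scaffold for RAF and MEK, rose by 2.93 (adjusted p = 6.23e-08), from 9.11 ± 2.57 to 68.8 ± 19.8 CPM, and Mapk3, which encodes an ERK kinase, by 1.00 (adjusted p = 0.000703), from 54.9 ± 13.2 to 115 ± 40.4 CPM. Of 13 tested genes of the JNK and p38 cascade, 2 rose, 2 fell and 9 did not pass. Mapk8, a JNK gene, was lower by 0.98 (adjusted p = 6.86e-05), and Map2k3, a kinase upstream of p38, by 0.80 (adjusted p = 0.000413). Map3k5, a stress-activated kinase, was higher by 2.47 (adjusted p = 6.36e-06), and Mapkapk2, a p38 effector, by 1.12 (adjusted p = 1.20e-05). Map3k5 (9.69 ± 2.63 CPM in control) and Ksr1 passed the filter only through the Trpm7 cKO libraries, so their calls are not independent of it. The median log2 fold changes were -0.25 for the ERK cascade and -0.0068 for the JNK and p38 cascade, beside -0.0060 for all tested genes. Of all tested genes, 24.6% were higher and 24.1% lower.

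Of 14 tested genes of ERK feedback and ERK targets, 8 rose and 1 fell, and their median log2 fold change was 0.64. Of all tested genes, 24.6% rose and 24.1% fell, with a median of -0.0060. Ier3 was at 79.4 ± 21.3 CPM in control and 476 ± 157 CPM in Trpm7 cKO (log2 fold change 2.55, adjusted p = 2.93e-08), and Egr1 at 633 ± 135 and 3128 ± 832 CPM (2.31, adjusted p = 4.31e-08). Both are immediate early genes, and Egr1 is also in the dissociation list, as is Fos, another rising gene of this list (log2 fold change 1.60). Spred2, an inhibitor of RAS and RAF signalling, fell by 0.75 (adjusted p = 0.00253), from 149 ± 27.9 to 84.1 ± 24.2 CPM. The count of rising genes ranged from 5 to 10 when 1 library was left out, with 5 without control replicate 1 or Trpm7 cKO replicate 2.

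Among the other dual-specificity phosphatases, 13 of the 14 listed genes were in the table and 6 were tested, of which 3 fell and 1 rose. The shares over all tested genes were 24.1% and 24.6%. Dusp27, a muscle gene whose product lacks phosphatase activity, had 20 to 43 counts in control libraries and 0 or 1 in Trpm7 cKO libraries, and its fitted fold is not given because those counts were under the floor. Dusp12, an atypical member, fell from 74.0 ± 9.65 to 18.7 ± 14.5 CPM (log2 fold change -1.68, adjusted p = 8.64e-05), and Dusp3 rose from 62.2 ± 10.3 to 104 ± 48.9 CPM (0.62, adjusted p = 0.0298). The call for Dusp3 was lost without control replicate 1, Trpm7 cKO replicate 3 or Trpm7 cKO replicate 5. Among the listed genes too low for the filter, Dusp9 had 6 to 18 counts in control and 0 to 3 in Trpm7 cKO libraries. Dusp15 went the other way, with 0 to 2 counts in control and 2 to 6 in Trpm7 cKO libraries. No fold is given for either gene at these counts.

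**Figure D5:**
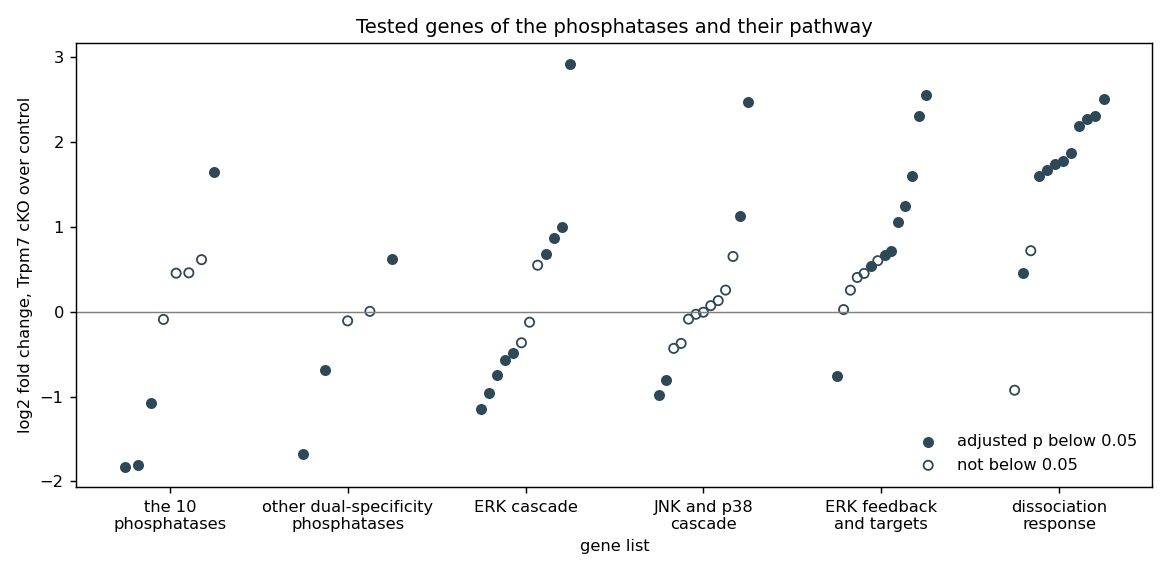
Log2 fold change, Trpm7 cKO over control, of each tested gene in the 10 phosphatases and in 5 related lists, filled where the edgeR adjusted p was below 0.05. Dusp27 is not drawn, since no Trpm7 cKO library had more than 3 counts. The dissociation list is mostly above 0, with 10 of 12 filled points there, while the ERK cascade lies on both sides.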

How the data were processed

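Transcripts of sorted, activated MuSCs were counted by CEL-Seq2 in 5 control and 5 Trpm7 cKO libraries. The authors deposited whole-number UMI counts per gene symbol, 24620 entries with no further normalization. Where a symbol was repeated, the entry with the most counts was kept, which left out 12 entries and kept 24608 symbols. Their processing notes and methods name UMI-tools 1.1.4, Trim Galore 0.6.10, HISAT2 2.2.1 to GRCm38, featureCounts 2.0.6 and DESeq2 1.30.1. The annotation release and strand setting are not given in the sources used here. Reads at the 3′ end can miss transcripts with other ends.

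Counts were tested with edgeR 4.0.16 (R 4.3.3) by robust quasi-likelihood F tests with TMM factors and the filterByExpr filter (minimum count 10, minimum total 15), adjusted by Benjamini-Hochberg over 7753 genes. Standard errors were taken as the log2 fold change over the square root of F. Normalized CPM used TMM library sizes. Single values were tested by two-sided exact permutation tests. Alternatives used limma 3.58.1 and DESeq2 1.42.0, other scalings, other filters, thinning, the replicate block, a leukocyte covariate (mean log2 CPM of 20 genes) and left-out libraries. One added setting, only libraries over 500000 counts, was chosen after seeing the data.

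Groups came from the sample titles. Named genes were all 10 members, the 2 lowest and 2 highest called genes of each pathway list, the 2 genes most like each member, Trpm7 and fixed markers. The members and lists were chosen with earlier results of these data known. Intervals and floors cover counting error or library spread only. The edgeR step was tested on simulated data. Chi-square over degrees of freedom between replicates was 1.48 to 6.45, so no 2 libraries agreed within sampling noise. Sequences are from RefSeq, and gene positions were read from GENCODE M21.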

Additional observations from a re-analysis of the deposited data

Results flagged for a closer look

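Of 20 sets of 5 libraries (10 genes in each genotype), 1 held a library far from the others by Dixon's ratio, and chance flags about 1 in 20. In Trpm7 cKO replicate 2, Dusp14 was at 31.3 CPM, where the nearest of the other Trpm7 cKO libraries was at 12.9 CPM, a ratio of 0.712, just past the limit for 5 libraries. That library had the lowest leukocyte sum of its genotype, 1579 CPM. Its part in the value was not tested.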

How the results depend on the processing

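The calls for Dusp5 and Dusp10 held under all alternatives run, and the fall of Dusp14 under all but the leukocyte covariate (0.39) and the thinned counts, where it was too low to be tested. The number of higher members was 1, and became 2 with DESeq2, total counts, no filter, a mean CPM of at least 10, or Trpm7 cKO replicates 4 and 5 summed, 3 with only libraries over 500000 counts, 0 per 3000 sorted cells, 0 with the leukocyte covariate, and 2 to 3 when 1 library was left out. Dusp8, which the filter had excluded, is the added gene, except with total counts, where it is Dusp6. Outside DESeq2 and no filter, Dusp8 was let in through its level in the Trpm7 cKO libraries. Dusp16 is added too with only the deeper libraries and without Trpm7 cKO replicate 3, and Dusp6 is added too without Trpm7 cKO replicate 1. Dusp1 was 0.49 per 3000 cells and 1.02 with the covariate. Per 3000 cells, a scale on which 66.6% of genes were lower and 4.90% higher, Dusp2 was -0.70, Dusp6 -0.71, Dusp7 -1.24 and Dusp16 -0.50; relative to the median of all genes on that scale they were 0.45, 0.44, -0.09 and 0.65. With the covariate Dusp2 was -2.64 and Dusp6 -0.83. With total counts Dusp6 was 0.55 and Dusp7 0.0085. With only libraries over 500000 counts Dusp16 was 0.79. Leaving out 1 library gave -0.072 to 0.70 for Dusp2, 0.18 to 0.62 for Dusp6, -0.19 to 0.054 for Dusp7, 0.36 to 0.74 for Dusp16 and 0.22 to 0.62 for the Dusp6 to Dusp7 ratio. The cause of these moves was not tested.

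The pathway counts moved as follows. Per 3000 cells, the ERK cascade had 1 higher, the JNK and p38 cascade 10 lower and 1 higher, the ERK targets 4 lower and 2 higher, and the other phosphatases 5 lower and 0 higher. With the covariate, the ERK cascade had 0 lower and 1 higher, the JNK and p38 cascade 0 in both directions, the ERK targets 0 lower and 5 higher, and the other phosphatases 0 in both directions; that fit called 139 genes lower and 390 higher in all, and the covariate does not overlap between genotypes. After thinning, the ERK cascade had 3 lower and 2 higher, the JNK and p38 cascade 1 higher, the ERK targets 0 lower, and the other phosphatases 1 lower and 0 higher, among 3914 genes tested. DESeq2 and the replicate block each gave 5 higher ERK targets, and only libraries over 500000 counts gave 0 higher other phosphatases. Leaving out 1 library gave 5 to 10 higher ERK targets and 0 to 1 higher other phosphatases. The replicate block changed no member call (Dusp1 1.63, Dusp5 -1.08, Dusp10 -1.84, Dusp14 -1.94). After centring, same-numbered libraries correlated at -0.12 to 0.18 and pairs with unlike numbers at -0.23 to 0.21. No pairing by number was visible, and such correlations cannot exclude one.

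Depth limits Dusp4, Dusp8, Dusp14 and Dusp16, where Trpm7 cKO libraries held few counts.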
